A study of Mus musculus with 8 samples.

Results

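The autophagy and mitophagy machinery was examined as 33 listed genes in liver RNA of mice with fatty liver, of 22180 genes that the arrays measured under a single gene symbol. Members were taken by symbol from the deposited values, keeping for each the probe set with the highest mean over all arrays. Of the 33, 31 were measured, and all 31 were among the 16635 genes bright enough to be tested. Optn was matched to no probe set in the annotation used here, and the probe set of Bnip3l is shared with a pseudogene of that name. Both are not analysed here.

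The 8 samples were liver tissue of wild-type C57BL/6 mice, with an array for each. They comprised 4 labelled non-alcoholic fatty liver disease with rilpivirine, an oral inhibitor of HIV reverse transcriptase, and 4 labelled with the same disease and no drug. Dosing was daily and matched to human use, but no amount is given. The protocol names a normal and a high-fat (60%) diet over 3 months for the study as a whole, without assigning a diet to a sample, and age is not given. Whether every sample came from its own mouse is not stated, and p-values then cover only the spread between these samples, which may be technical. The study set rilpivirine against control, and the comparison here asks whether transcripts of each step of autophagy differed with the drug.

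Autophagy encloses cytoplasm in a double membrane and delivers it to lysosomes, and in the liver it turns over mitochondria, lipid droplets and protein aggregates. A kinase complex around ULK1 starts the membrane, a lipid kinase complex around Beclin 1 marks it with the lipid PI3P, and enzymes related to those of ubiquitin attach proteins of the ATG8 family to it. Cargo receptors then link ubiquitylated material to ATG8 proteins, and mitophagy receptors do so for mitochondria. Transcript levels do not measure the flow through this pathway, which is controlled to a large part after transcription.

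No member passed the test. In limma with Benjamini-Hochberg adjustment over all genes, 0 of 31 members and 0% of the 16635 genes had an adjusted p under 0.05, and the smallest adjusted p among members was 0.890. Differences below are rilpivirine minus control on the log2 scale of the deposited values. They were negative for 25 members and positive for 6, with a median of -0.16, beside a median of -0.028 over all genes tested, of which 56.9% were negative. Among the 11090 genes in the brighter part of the arrays, which held 29 of the members, 63.8% were negative and the median was -0.062. Lower levels at an unadjusted p under 0.05 were found for 4 members (Ulk1, Gabarap, Gabarapl2 and Bnip3), beside 3.21% of all genes, and higher levels for 0, beside 2%. The groups did not overlap in 1 member with lower values, Ulk2, beside 1.73% of all genes, and in 0 with higher values, beside 1.3%.

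The precision of 4 arrays a group limits what can be said of the rest. The standard errors of the members ran from 0.11 to 0.31 log2. The 95% confidence interval lay within 1 log2 of zero in either direction, that is under a doubling or halving, for 29 of the 31 members, and within 0.5 log2 for 13. The 2 others were Atg3 and Bnip3, whose intervals reached -1.15 and -1.20.

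**Figure D1:**
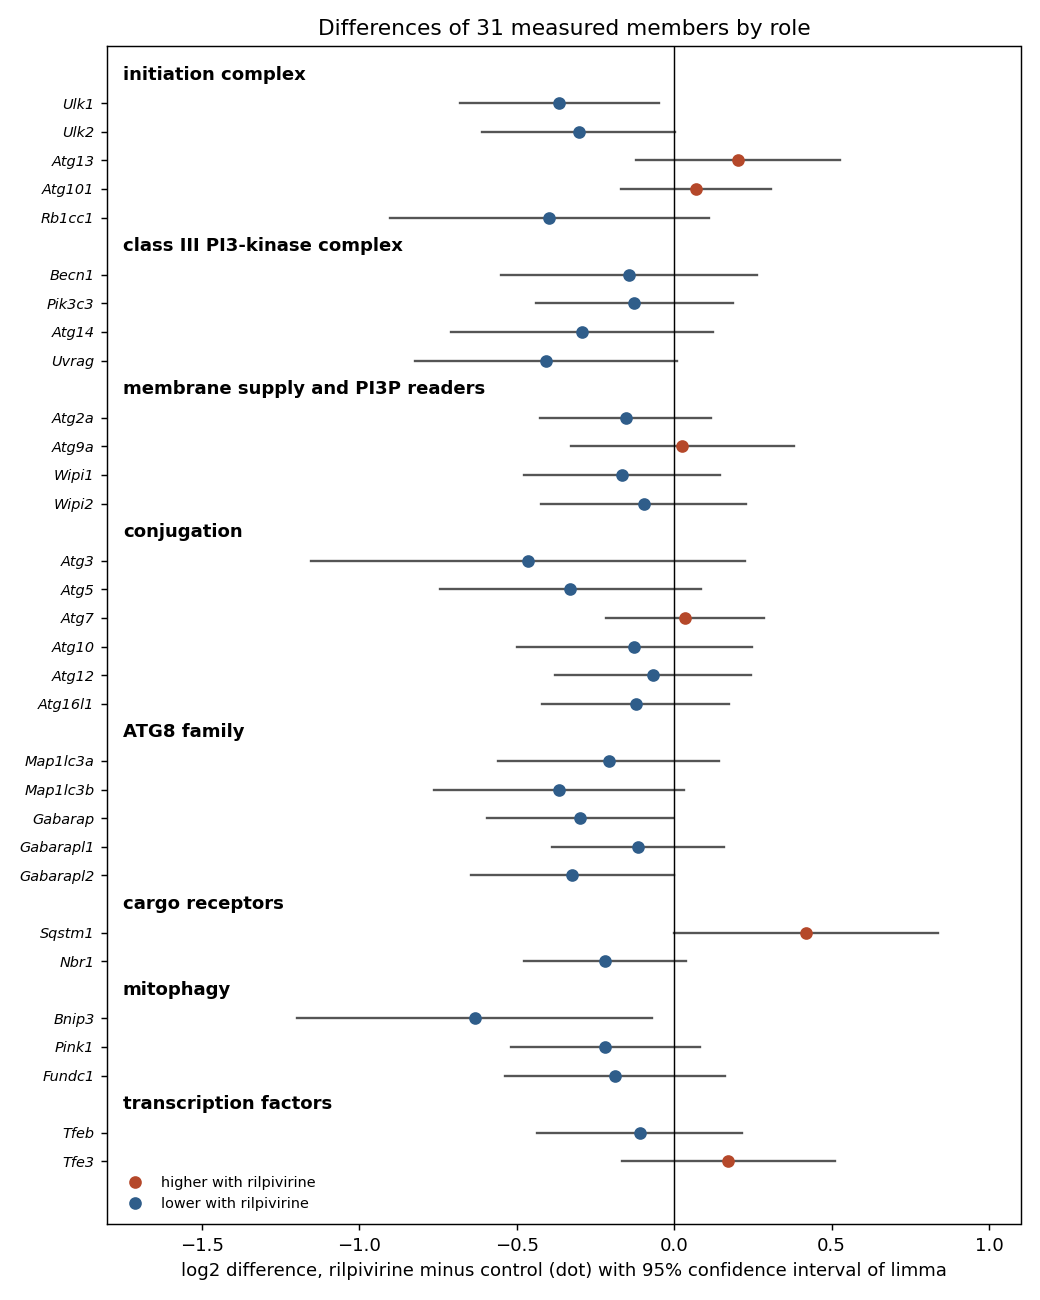
Log2 difference of each of the 31 measured members, rilpivirine minus control, with the 95% confidence interval of limma, in 8 roles. 25 dots lie left of zero and 6 right, and the intervals of Ulk1, Gabarap, Gabarapl2 and Bnip3 end below zero.

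The promoter sequences of the members were examined for the letters CACGTG, since TFEB and TFE3, the transcription factors among the members, are known to bind this core in genes of autophagy and lysosomes. The circadian activators CLOCK and BMAL1 are known to bind it too. RefSeq promoters (GRCm38.p6, from 250 bases before to 50 after each start) were found for 26 of the 33 listed and 25 of the 31 measured members. The measured members with none listed were Rb1cc1, Becn1, Pik3c3, Atg12, Atg16l1 and Map1lc3a. The core reads the same on both strands. It occurred in 5 of these 25, beside 10.7% of 12946 tested genes with a promoter and 8.09% of 27025 genes in all. The longer form TCACGTGA, which overlaps the core, occurred in 1 of the 25, Atg3, beside 1.76% of the tested genes.

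The stretches of 100 bases that hold the core are shown 5′ to 3′ on the strand of each gene, with the core in capitals, because these are the members whose start regions carry it. They lie upstream of or across the annotated start of the gene. Atg3 is from chr16:45158699-45158798 (plus strand), with the first bases of its cores at -94 and -71 from the start. Atg5 is from chr10:44268278-44268377 (plus), with its core at -14, and Atg7 from chr6:114670917-114671016 (plus), with its core at -132. Atg14 is from chr14:47568385-47568484 (minus), where the core runs from -1 to 5 and so spans the start, and Bnip3 from chr7:138909562-138909661 (minus), with its core at -108.
Atg3: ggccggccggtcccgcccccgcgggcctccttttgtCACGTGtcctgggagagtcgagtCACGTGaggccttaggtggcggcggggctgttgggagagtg
Atg5: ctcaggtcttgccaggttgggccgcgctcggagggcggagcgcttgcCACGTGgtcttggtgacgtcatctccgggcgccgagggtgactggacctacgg
Atg7: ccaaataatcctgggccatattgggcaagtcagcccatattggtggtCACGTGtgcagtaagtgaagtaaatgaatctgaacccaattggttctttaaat
Atg14: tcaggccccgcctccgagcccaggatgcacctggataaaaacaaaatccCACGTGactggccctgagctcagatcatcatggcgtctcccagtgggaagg
Bnip3: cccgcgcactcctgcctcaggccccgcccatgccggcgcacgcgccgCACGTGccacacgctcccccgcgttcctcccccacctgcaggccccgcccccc

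Of these 5 genes Bnip3, Atg3, Atg5 and Atg14 had log2 differences of -0.63, -0.46, -0.33 and -0.29, and Atg7 had 0.035. A match describes the sequence only and shows no binding.

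The initiation complex held 3 negative and 2 positive differences, and both ULK kinases were among the negative ones. Ulk1, the kinase that nutrient shortage switches on, measured 7.89, 7.65, 7.68 and 7.68 log2 in rilpivirine replicates 1 to 4, against 7.87, 8.12, 8.44 and 7.93 in control replicates 1 to 4. In 3 of 4 rilpivirine arrays it lay below every control, and rilpivirine 1 lay just above the lowest control. The difference was -0.36 ± 0.14 (SE), a 1.29-fold lower level, with a limma adjusted p of 0.890. It kept its sign in each of 18 alternative settings, between -0.44 and -0.25, the smallest in size being that without control replicate 3. Among these settings, moderation, the filters and the replicate block leave a difference unchanged and could not turn its sign.

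Ulk2, the close relative of ULK1 with overlapping function, measured 7.45, 6.96, 7.47 and 7.52 with rilpivirine, against 7.71, 7.56, 7.66 and 7.68 in controls. All 4 rilpivirine values lay below the controls, the closest pair being rilpivirine 4 and control 2. The difference was -0.30 ± 0.14 (SE), and it was -0.17 without rilpivirine replicate 2, the lowest array. Centring each array on its median made the groups overlap.

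The other subunits of the complex gave values in both directions. Rb1cc1, which encodes the large scaffold FIP200, had a difference of -0.40 ± 0.23 (SE), which was -0.20 without rilpivirine replicate 2. Atg13, the adaptor that binds ULK1 to FIP200, differed by 0.20 ± 0.15 and its partner Atg101 by 0.069 ± 0.11 (SE). For Atg101 the 95% confidence interval ran from -0.17 to 0.31. Atg13 was 0.10 without control replicate 4 and 0.13 without rilpivirine replicate 4, and Atg101 was 0.020 without rilpivirine replicate 1.

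Genes of the class III PI3-kinase complex, which makes PI3P on the growing membrane, had 4 of 4 negative differences, with a median of -0.22. Uvrag, the subunit of the complex that acts on endosomes and late autophagosomes, measured 7.23, 6.61, 7.55 and 7.42 with rilpivirine, against 7.75, 7.44, 7.64 and 7.60 in controls. Rilpivirine 3 lay within the control range and the other 3 below it. Its difference was -0.41 ± 0.19 (SE) and -0.21 without rilpivirine replicate 2. Atg14, which directs the complex to the site of autophagosome formation, differed by -0.29 ± 0.19 (SE), or -0.17 without control replicate 3 and -0.46 without control replicate 2.

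Becn1, which encodes the scaffold Beclin 1, measured 6.09, 5.38, 6.21 and 6.23 with rilpivirine, against 6.28, 5.96, 6.15 and 6.08 in controls. Only rilpivirine 2 lay outside the control range. The difference of -0.14 ± 0.18 (SE) took the other sign without that array, at 0.055. Pik3c3, the catalytic subunit VPS34, differed by -0.13 ± 0.14 (SE), by -0.037 without rilpivirine replicate 1 and by 0.055 without replicates 1 and 2 together.

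Genes that supply membrane or read PI3P held 3 negative differences and 1 positive, with a median of -0.13. Atg2a, which encodes a lipid transfer protein, measured 6.46, 6.35, 6.08 and 6.40 with rilpivirine, against 6.38, 6.54, 6.60 and 6.38 in controls, so the groups overlapped. Its difference was -0.15 ± 0.12 (SE), and -0.073 without rilpivirine replicate 3. Atg9a, the transmembrane lipid scramblase, differed by 0.027 (95% confidence interval -0.33 to 0.38). The PI3P-binding proteins Wipi1 and Wipi2 differed by -0.16 and -0.097, with standard errors of 0.14 and 0.15. Wipi1 was -0.086 without rilpivirine replicate 2. Wipi2 was -0.014 without rilpivirine replicate 3 and -0.017 without replicate 2.

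Conjugation genes, whose enzymes join ATG12 to ATG5 and ATG8 proteins to lipid, had a median difference of -0.12. The role held 5 negative values and 1 positive. Atg5, the acceptor of ATG12, measured 6.73, 6.28, 7.16 and 7.13 with rilpivirine, against 7.34, 7.08, 7.12 and 7.07 in controls. Rilpivirine 1 and 2 lay below all controls while rilpivirine 3 and 4 lay within their range. The difference was -0.33 ± 0.19 (SE), -0.15 without rilpivirine replicate 2 and -0.0080 without rilpivirine replicates 1 and 2 together.

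Atg3, the enzyme that passes ATG8 proteins to lipid, had the largest standard error of the 31 members, and its values in every array, given after they had been seen, split the rilpivirine group. It measured 6.74 and 6.45 in rilpivirine 1 and 2 and 7.89 and 7.61 in rilpivirine 3 and 4, against 8.03, 7.19, 7.40 and 7.93 in controls. Its difference of -0.46 ± 0.31 (SE) was 0.11 without rilpivirine replicates 1 and 2 together and -0.22 without replicate 2 alone. Atg7, the activating enzyme of both conjugation systems, differed by 0.035 (95% confidence interval -0.22 to 0.29). Atg10, the enzyme that passes ATG12 to ATG5, differed by -0.13 ± 0.17, Atg12, the protein so passed on, by -0.067 ± 0.14 and Atg16l1, which places the complex on the membrane, by -0.12 ± 0.14 (SE). With a sample left out Atg10 ran from -0.26 without rilpivirine replicate 3 to -0.023 without rilpivirine replicate 2. Atg16l1 ran from -0.20 without control replicate 4 to -0.048 without rilpivirine replicate 3.

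The ATG8 family, the proteins that coat the autophagosome membrane and bind cargo receptors, had 5 of 5 negative differences and a median of -0.30. This sign held in all 18 alternatives for each of the 5, with medians of -0.36 to -0.17. Moderation, the filters and the replicate block could not turn it, since they leave a difference unchanged. Gabarap measured 10.49, 10.10, 10.32 and 10.47 with rilpivirine, against 10.85, 10.43, 10.62 and 10.67 in controls. Rilpivirine 2 and 3 lay below all controls, and 1 and 4 overlapped with the lowest control. The difference was -0.30 ± 0.13 (SE), with a limma adjusted p of 0.890. Gabarap was the member with more than 1 single-symbol probe set: the dimmer one measured 6.49, 6.48, 6.36 and 6.52 with rilpivirine, against 6.29, 5.72, 6.20 and 6.82 in controls, a difference of 0.21. The 2 probe sets therefore disagreed in sign, and their mean differed by -0.045.

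Gabarapl2, which encodes GATE-16, measured 5.13, 4.65, 5.10 and 5.30 with rilpivirine, against 5.43, 5.26, 5.46 and 5.32 in controls. The overlap rested on rilpivirine 4 and control 2. The difference was -0.32 ± 0.15 (SE), and -0.19 without rilpivirine replicate 2. Map1lc3b, whose product LC3B is the usual marker of autophagosomes, measured 8.75, 8.33, 8.85 and 8.05 with rilpivirine, against 8.86, 8.63, 9.004 and 8.94 in controls. Rilpivirine 2 and 4 lay below all controls and rilpivirine 1 and 3 within their range. The difference of -0.37 ± 0.18 (SE) was -0.22 without rilpivirine replicate 4, the lowest array. Map1lc3a and Gabarapl1, the remaining family members, differed by -0.21 ± 0.16 and -0.12 ± 0.12 (SE). Map1lc3a was -0.082 without control replicate 3 and -0.10 without rilpivirine replicate 2, and Gabarapl1 was -0.064 without control replicate 4 and -0.075 without rilpivirine replicate 2.

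**Figure D2:**
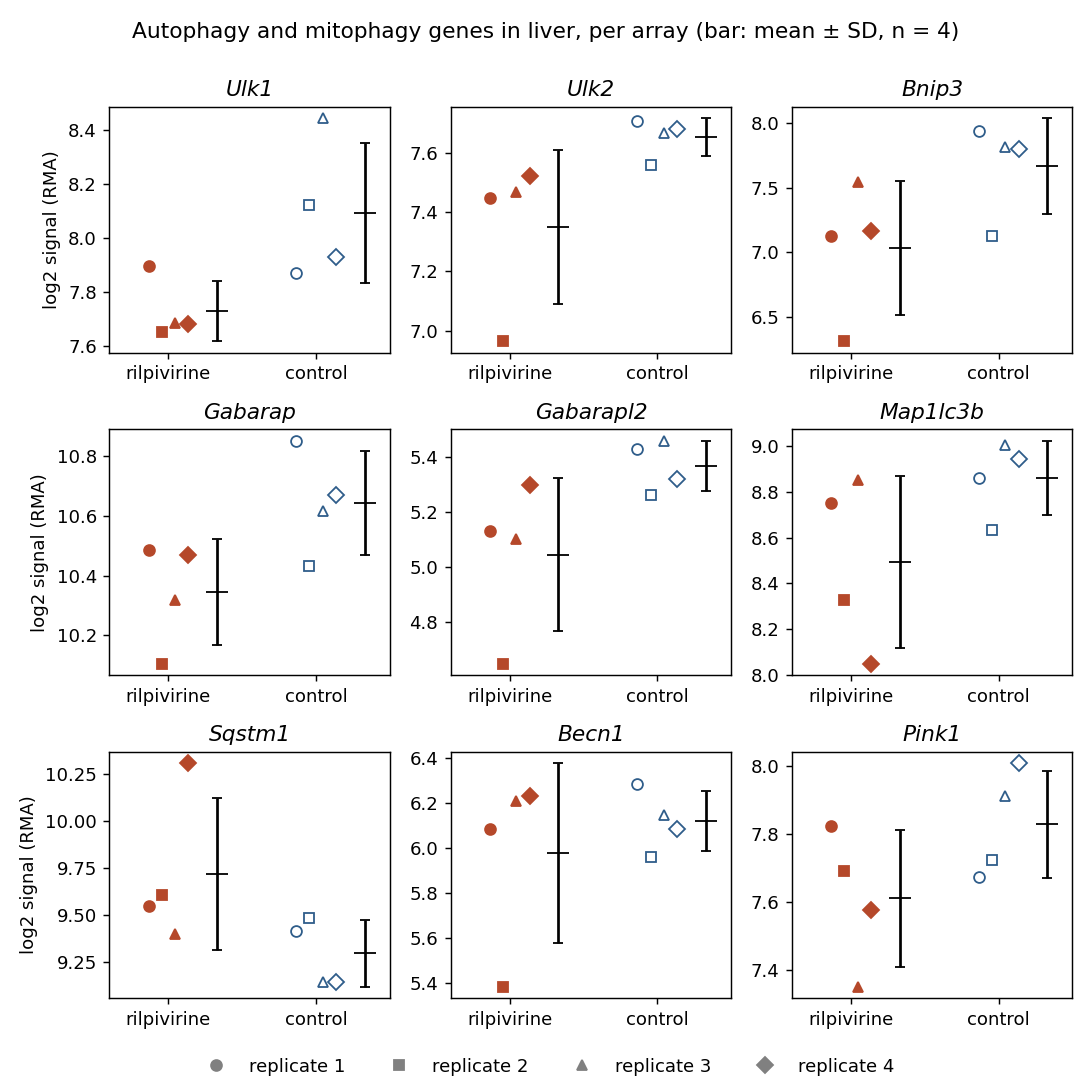
Log2 signal of 9 members on each array, rilpivirine left and control right, with a symbol for each replicate number and the mean ± SD (n = 4) beside each group. Rilpivirine 2 is the lowest of 8 arrays in Ulk1, Ulk2, Bnip3, Gabarap, Gabarapl2 and Becn1, and rilpivirine 4 is the highest in Sqstm1.

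The cargo receptors differed from each other in sign. Sqstm1 encodes p62, which carries ubiquitylated cargo, is itself degraded by autophagy, and is a known target of the oxidative stress factor NRF2. It measured 9.55, 9.61, 9.40 and 10.31 with rilpivirine, against 9.42, 9.48, 9.14 and 9.15 in controls. In 3 of 4 rilpivirine arrays it lay above every control, and rilpivirine 4 stood far above the other 3. The difference was 0.42 ± 0.19 (SE), a 1.34-fold higher level with a limma adjusted p of 0.890, and 0.22 without rilpivirine replicate 4. It was positive in all 18 alternatives, though moderation, the filters and the replicate block cannot change a difference. Nbr1, a receptor of similar build, measured 8.26 ± 0.16 with rilpivirine, against 8.48 ± 0.071 in controls (SD, n = 4 per group), a difference of -0.22 ± 0.12 (SE).

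Among mitophagy genes, Bnip3 had the largest difference in size of the 31 members. Its product is a receptor on the outer mitochondrial membrane and its gene is induced by low oxygen through HIF-1. Bnip3 measured 7.13, 6.31, 7.54 and 7.16 with rilpivirine, against 7.94, 7.12, 7.82 and 7.80 in controls. Rilpivirine 2 lay below every other array, while control 2 lay within the rilpivirine range and apart from the other controls. The difference was -0.63 ± 0.26 (SE), a 1.55-fold lower level, with a limma adjusted p of 0.890. Leaving out rilpivirine replicate 2 gave -0.39, and leaving out replicates 1 and 2 gave -0.32. Leaving out control replicate 2 gave -0.82.

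Pink1, the kinase that gathers on damaged mitochondria and recruits Parkin, measured 7.82, 7.69, 7.35 and 7.58 with rilpivirine, against 7.67, 7.72, 7.91 and 8.01 in controls. The groups overlapped, and rilpivirine 3 was lowest. The difference was -0.22 ± 0.14 (SE), and -0.13 without rilpivirine replicate 3. With neither rilpivirine 1 nor 2 in the fit it was -0.37. Fundc1, a receptor that responds to low oxygen, was dim, at 3.66 ± 0.30 log2 with rilpivirine, against 3.85 ± 0.15 in controls (SD, n = 4 per group), and differed by -0.19 ± 0.16 (SE), or -0.075 without rilpivirine replicate 2.

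The transcription factors had differences of both signs. Tfe3 measured 6.74, 6.32, 6.10 and 6.58 with rilpivirine, against 6.21, 6.41, 6.35 and 6.08 in controls, with overlapping groups and a difference of 0.17 ± 0.15 (SE). It was 0.070 without rilpivirine replicate 1 and 0.11 without control replicate 4. Tfeb, the main activator of lysosomal genes, was dim at 3.53 ± 0.28 with rilpivirine, against 3.64 ± 0.098 in controls (SD, n = 4 per group), and differed by -0.11 (95% confidence interval -0.43 to 0.22), between -0.24 without rilpivirine replicate 2 and -0.039 without replicate 3.

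**Figure D3:**
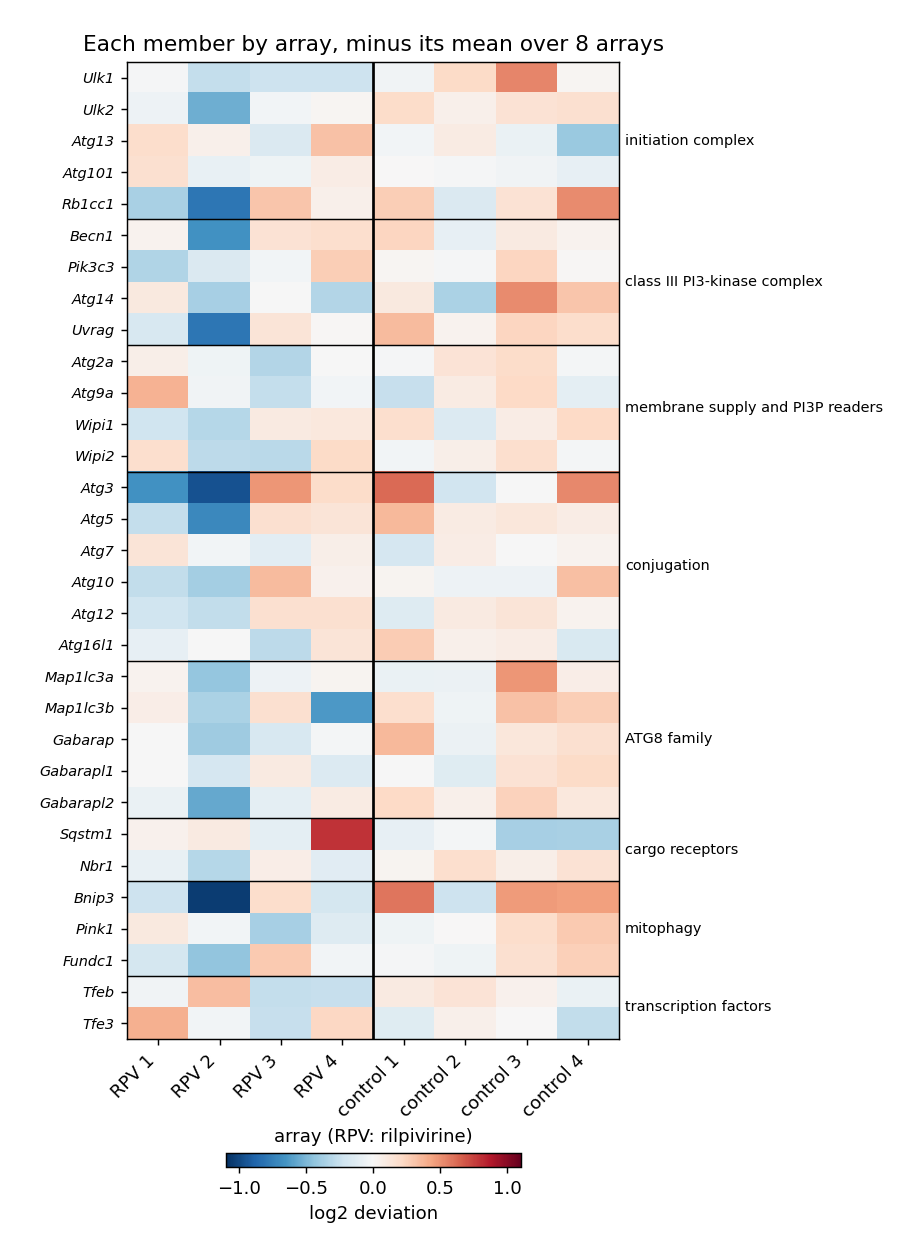
Deviation of each member from its mean over 8 arrays (log2, colour scale), with arrays in columns, rilpivirine left and control right, and members in rows by role. Rilpivirine 2 holds the deepest blue fields, in Bnip3 and Atg3, and Atg3, Atg5, Atg10 and Rb1cc1 are blue in rilpivirine 1 and 2 but not in 3 and 4.

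The members also varied between arrays of the rilpivirine group. Rilpivirine 2 was the lowest of the 8 arrays for 18 of 31 members (58.1%), beside 30.2% of all genes tested. The median deviation of the members from their means over the 8 arrays was -0.015, -0.31, -0.032 and 0.043 log2 in rilpivirine 1 to 4, against 0.029, 0.0047, 0.16 and 0.083 in controls 1 to 4. Rilpivirine 4 therefore lay above control 1 and control 2. In 12 members (38.7%) rilpivirine 1 and 2 both lay below rilpivirine 3 and 4, beside 25.7% of all genes, and in 2 members, Pink1 and Tfeb, both lay above, beside 21.8%. The standard deviation was larger with rilpivirine than in controls for 24 of 31 members (77.4%), beside 69.8% of all genes. Once rilpivirine replicate 2 was left out it was larger for 23 of 31. The share over all genes is not given here for that count, so it does not set the members apart from other genes.

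Rilpivirine 2 also stood apart across the whole array. Its mean correlation with the other arrays over all probe sets was 0.965, against 0.976 to 0.981 for the rest. Its 75 probe sets of small nucleolar RNAs, short RNAs that guide the modification of ribosomal RNA, lay on average 0.49 log2 above their mean over 8 arrays, beside 0.26, 0.023 and -0.20 in rilpivirine 1, 3 and 4, against -0.60, 0.27, -0.041 and -0.19 in controls 1 to 4. Without rilpivirine replicate 2 the members' median was -0.14, and 0 were lower at an unadjusted p under 0.05 in limma. Of all genes 702 were then at that p in either direction, beside 867 with all arrays. With the mean of these small RNAs as a covariate the members' median was -0.10. Ulk1 was the 1 member lower at that p and Sqstm1 the 1 higher, beside 746 of all genes in either direction. Since these RNAs were highest on rilpivirine 2, the covariate fit cannot tell them apart from that array. Their part in the members' differences was not tested.

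**Figure D4:**
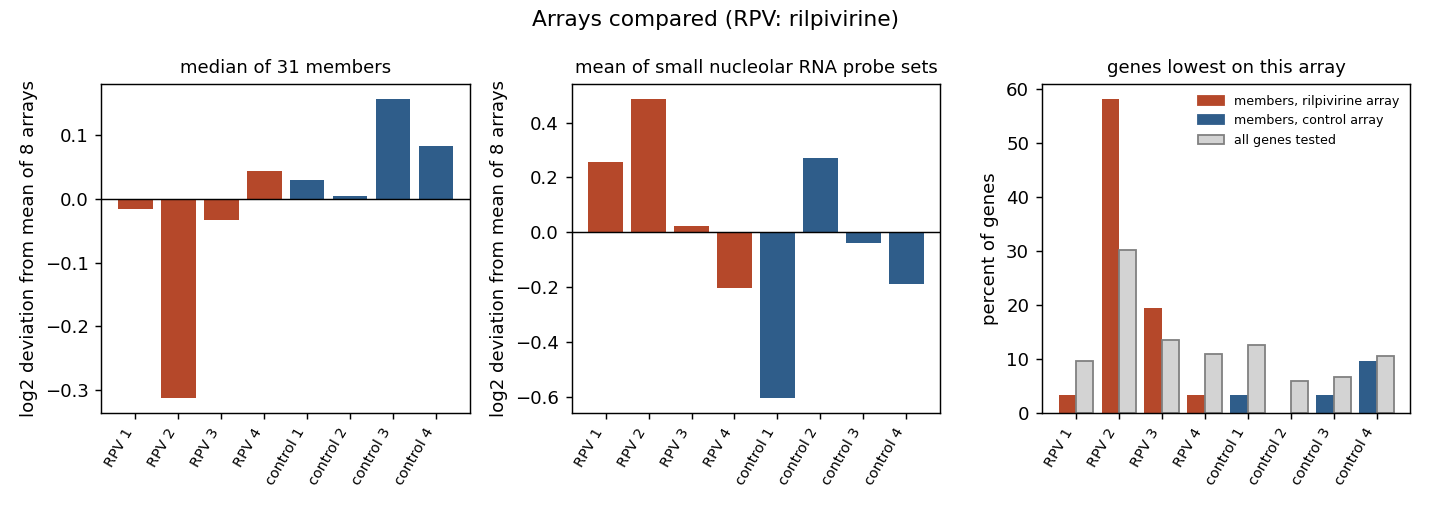
Values of each array, rilpivirine left and control right: the median log2 deviation of 31 members, the mean log2 deviation of 75 small nucleolar RNA probe sets, and the percent of members (coloured) and of all genes tested (grey) that were lowest on that array. Rilpivirine 2 has the lowest member median, -0.31, the highest small nucleolar RNA level, 0.49, and 58.1% of the members at their lowest.

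The medians of the roles moved by different amounts when these arrays were left out. The median of the initiation complex was -0.30 over all arrays, -0.17 without rilpivirine replicate 2 and -0.016 without replicates 1 and 2 together. For conjugation the same 3 values were -0.12, -0.082 and 0.054. They were -0.30, -0.19 and -0.17 for the ATG8 family and -0.22, -0.24 and -0.32 for mitophagy. The mitophagy median rests on 3 genes that moved apart. Without replicates 1 and 2 Bnip3 went from -0.63 to -0.32, Fundc1 from -0.19 to 0.032 and Pink1 from -0.22 to -0.37. In any member where rilpivirine 1 and 2 both lay below 3 and 4, leaving them out could only raise the difference. No difference between roles was tested, and the roles hold 2 to 6 genes.

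**Figure D5:**
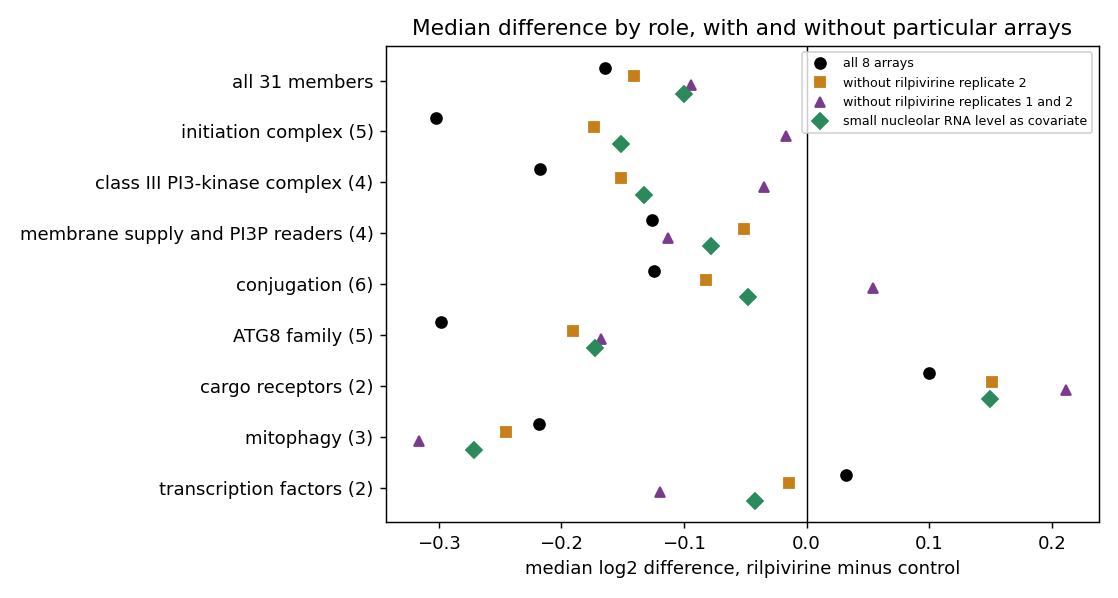
Median log2 difference, rilpivirine minus control, over all 31 members and in each role (number of measured genes in brackets), with all arrays, without rilpivirine replicate 2, without rilpivirine replicates 1 and 2, and with the small nucleolar RNA mean as covariate. The initiation median lies between -0.30 and -0.016 and the ATG8 median between -0.30 and -0.17.

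Markers of other liver cells were set beside these values, with 0 called after adjustment in limma. At an unadjusted p under 0.05, 2 Kupffer, 2 monocyte and macrophage and 1 stellate cell marker were lower, beside 3.21% of all genes. Higher at that p were 3 endothelial, 1 lymphocyte and 1 skeletal muscle marker, beside 2%. In bulk tissue fewer cells of a type and less RNA per cell cannot be told apart. Of 10 Kupffer cell markers 9 had negative differences, and their mean deviation ran from -0.33 to 0.13 log2 over rilpivirine arrays, against -0.11 to 0.28 over controls. The 8 tested markers of the monocyte and lipid-associated macrophage list all had negative differences, with means of -0.50 to 0.33 with rilpivirine, lowest in rilpivirine 2, against -0.00011 to 0.48 in controls. Ccr2, of the same list, lay under the level filter. Of 7 sinusoidal endothelial markers 6 were positive, with means of -0.15 to 0.30 with rilpivirine, against -0.35 to 0.024 in controls. The mean over 7 hepatocyte markers ran from -0.076 to 0.029 on rilpivirine arrays, against -0.036 to 0.10 on controls. On rilpivirine 4, the array with the highest Sqstm1, 3 adipocyte markers averaged 0.90 log2 above their mean over 8 arrays, against -0.28 to -0.055 on the other rilpivirine arrays and -0.15 to -0.025 on controls, while the defining marker Adipoq lay under the level filter. The 3 were uneven: the SD with rilpivirine was 1.08 for Retn, 0.45 for Plin1 and 0.19 for Lep. Lep was dim, at 2.81 log2 with rilpivirine against 2.95 in controls, and had the 1 negative difference of the 3. Differences had both signs among 7 stellate cell markers (4 negative), 4 cholangiocyte markers (2 negative) and 5 lymphocyte markers (1 negative, with Ms4a1 under the filter). They were positive for 3 of 3 tested neutrophil markers, with S100a8, S100a9 and Retnlg under the filter, and for 5 of 5 skeletal muscle markers, with Mylpf under it. The 3 neutrophil markers were dim, with group means of 2.83 to 3.32 log2, near the filter at 2.72. The part of the cell markers in the members' differences was not tested.

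Several autophagy genes, Ulk1, Bnip3 and Map1lc3b among them, are known to cycle over the day in mouse liver, and the sources used here do not state collection times. The clock output gene Dbp, added here after its values had been seen, measured 8.91, 7.75, 8.57 and 7.37 log2 with rilpivirine, against 8.61, 9.23, 9.17 and 9.12 in controls. Rilpivirine 2 and 4 lay below all controls. The median deviation of the members was 0.043 log2 on rilpivirine 4, where Dbp was lowest, and -0.31 on rilpivirine 2. It was 0.0047 on control 2, where Dbp was highest and Bnip3 was the lowest of the controls. The part of Dbp or of collection time in the differences was not tested.

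The rest of the pathway, taken from lists drawn up by function, also gave 0 calls over all genes. Of 22 further genes of the core machinery 19 had negative differences, with a median of -0.092, and 0 had an unadjusted p under 0.05 in limma. Atg4d, a protease that trims ATG8 proteins, differed by -0.23 ± 0.13 and Vamp8, which helps fuse autophagosomes with lysosomes, by -0.26 ± 0.14 (SE). Of 14 other receptors and mitophagy factors 12 were negative, with a median of -0.081. Ccpg1, a receptor for endoplasmic reticulum, differed by -0.34 ± 0.15 (SE) and was the 1 gene of its 14 at an unadjusted p under 0.05, beside 3.21% of all genes lower at that p. Calcoco1, another receptor for endoplasmic reticulum, differed by -0.24 ± 0.11 (SE). Its groups did not overlap, beside 1.73% of all genes lower in this way.

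Genes that control the pathway through mTORC1 and AMPK, the growth and energy sensing kinases, had 19 of 22 negative differences and a median of -0.15. At an unadjusted p under 0.05, 2 of the 22 were lower, beside 3.21% of all genes, and 0 higher, beside 2%. Tsc1, a brake on mTORC1, measured 4.92 ± 0.16 with rilpivirine, against 5.32 ± 0.12 in controls (SD, n = 4 per group). The groups did not overlap, beside 1.73% of all genes lower in this way. The difference of Tsc1 was -0.40 ± 0.12 (SE), with a limma adjusted p of 0.813. Foxo1, a fasting-active transcription factor that promotes autophagy genes, differed by -0.51 ± 0.21 (SE). Of 17 lysosomal genes 10 were negative and 7 positive, with a median of -0.096 and 0 at an unadjusted p under 0.05. Mcoln1, a calcium channel of the lysosome, differed by -0.30 ± 0.13 and the sialidase Neu1 by -0.24 ± 0.12 (SE). The groups did not overlap for Neu1, which was lower, and for Gla of the same list, which was higher. Over all genes these shares were 1.73% and 1.3%.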

How the data were processed

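Total RNA of snap-frozen liver was isolated with Trizol and 300 ng per sample was labelled for Affymetrix whole-transcript arrays, per the labels' protocols. The authors deposited log2 values made with RMA and used limma, per the submitters' processing notes. Versions and build were not given in the sources used here. Because RMA normalizes arrays together, a change in total RNA cannot be seen. The values ran from 0.696 to 13.4 over 41345 probe sets, array medians from 3.33 to 3.45, and no arrays were identical.

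Gene symbols came from the platform annotation, which gave 23521 probe sets 1 symbol, 1814 several and 16010 none listed. Of probe sets with 1 symbol the brightest per symbol was kept (22180 genes), and 5545 genes averaging below the 25th percentile of gene means (2.72 log2) were not tested. Differences were fitted on 16635 genes with lmFit and eBayes of limma 3.58.1 (R 4.3.3), two-sided, without covariates, with Benjamini-Hochberg adjustment at 0.05. The scripts were tested on simulated data. Promoters were read from RefSeq (GRCm38.p6); figures used matplotlib 3.10.9.

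Members and lists were chosen with earlier results of these data known. Values in every sample are given for members that did not overlap or had an unadjusted p under 0.05, for the smallest p of each role, and for Map1lc3b, Sqstm1, Becn1 and Pink1; of other pathway lists, the 2 smallest p. Alternatives were trend and robust moderation, array weights, median centring, quantile normalization, other filters, the mean of probe sets, a replicate block, leaving out each sample, rilpivirine 1 and 2 left out together, a small nucleolar RNA covariate and Welch statistics.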

Additional observations from a re-analysis of the deposited data

Results flagged for a closer look

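Of 62 groups of 4 arrays (31 members in each of 2 groups), 6 held an array far from the other 3, with a gap to the nearest over 0.829 of the group's range. Chance nominally flags about 5% of groups, and the members share arrays. The share flagged over all genes tested is not given here, so the 6 are not a result about the members. With rilpivirine these were Ulk1 in replicate 1 (7.89 log2, others 7.65 to 7.68), Ulk2 in replicate 2 (6.96, others 7.45 to 7.52) and Becn1 in replicate 2 (5.38, others 6.09 to 6.23). In controls they were Pik3c3 in replicate 3 (6.47, others 6.22 to 6.26), Atg5 in replicate 1 (7.34, others 7.07 to 7.12) and Bnip3 in replicate 2 (7.12, others 7.80 to 7.94).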

How the results depend on the processing

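All 19 alternatives called 0 genes and 0 members after adjustment, and over the 18 with a limma fit the members' adjusted p ran from 0.442 to 0.9998. Negative differences numbered 20 to 27 of 31, and the members' median stayed between -0.22 and -0.095. The sign held throughout for 22 members (18 negative, 4 positive). Trend and robust moderation, the filters and the replicate block leave each difference unchanged, so a sign could turn only in the other settings. Genes at an unadjusted p under 0.05 numbered 867, and 578 to 1524 with a sample left out, the highest without rilpivirine replicate 4. The 4 members lower at that p became 2 after median centring or with the 50th percentile filter, 1 with the small nucleolar RNA covariate, 0 by Welch statistics, and 0 to 7 with a sample left out. The value 0 came without rilpivirine replicate 2 or control replicate 3, where 702 and 589 of all genes were at that p in either direction. It was 1 without control replicate 1 or 4, beside 578 and 613 genes, and 7 without rilpivirine replicate 3, beside 1214. The count over all genes thus moved too, and its shares in each direction are not given here for the alternatives. The 0 members higher became 1, Sqstm1, with array weights, quantile normalization, no filter, the mean of probe sets, the small nucleolar RNA covariate, without rilpivirine 1 and 2, and without rilpivirine replicate 3 or control replicate 2 (0 to 1 with a sample left out). The 1 member with lower, separate groups became 0 after median centring, 2 after quantile normalization, 4 without rilpivirine 1 and 2, and 1 to 6 with a sample left out, the 6 without control replicate 2. On the higher side 0 became 1 (Atg12) without rilpivirine 1 and 2, and 0 to 1 with a sample left out. Groups with arrays left out separate more easily by chance, and shares over all genes are not given here for them. Their counts of separate groups therefore cannot be set against those of the full set of arrays. The initiation median was -0.016 without rilpivirine 1 and 2, -0.15 with the covariate, and -0.35 to -0.17 with a sample left out. Signs turned without rilpivirine 1 and 2 for Becn1 (0.10), Pik3c3 (0.055), Atg9a (-0.13), Wipi1 (0.023), Atg3 (0.11), Atg7 (-0.0047), Atg10 (0.13), Atg12 (0.15) and Fundc1 (0.032), and with the covariate for Becn1 (0.047), Atg9a (-0.082) and Atg7 (-0.013). Every member that turned positive without rilpivirine 1 and 2 had both arrays below rilpivirine 3 and 4. Leaving those arrays out therefore had to raise its difference, and the turn adds nothing to that split. With a sample left out Becn1 ran from -0.23 to 0.055, Atg9a from -0.096 to 0.12, Atg7 from -0.021 to 0.078 and Atg12 from -0.14 to 0.012. The causes were not tested.

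With the replicate number as a block (replicate block), 8 members were lower and 0 higher at an unadjusted p under 0.05 in limma. Over both directions together 1071 of the 16635 genes were at that p (867 without the block), and the share in each direction is not given here. After adjustment 0 passed. Samples of the same number correlated at -0.25, 0.46, -0.09 and 0.07 in their deviations from the group means. Replicate 2 was the 1 of 4 that correlated best with its own number. So few values cannot show whether the labels' numbers pair the samples.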
